A study of Homo sapiens with 6 samples.

Results

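The 10 genes examined here hold the transcriptional coactivator YAP in check: the angiomotins AMOT, AMOTL1 and AMOTL2, the kinases LATS1 and LATS2, the membrane scaffolds NF2, FRMD6, WWC1 and WWC2, and the phosphatase PTPN14. They were chosen by name, for their place upstream of YAP, but with earlier results of these data known. All 10 were found among the 58219 gene identifiers counted. All 10 also had enough reads to be tested, among 14723 genes tested. RNA came from SNU-449, an established line of human hepatocellular carcinoma cells. In 3 libraries the cells stably expressed Yes WT, the normal form of the Src family tyrosine kinase Yes. In the other 3 they stably expressed Yes T348I, a form changed at the gatekeeper residue of the drug pocket. Both lines received dasatinib, an inhibitor of Src family kinases, at 100 nM. Cells without the drug were not analysed here. Whether a line is a clone or a pool, what promoter drives Yes, and whether its 3 libraries are separate cultures are points on which the labels are silent. The p-values therefore cover the spread among these libraries alone, and that spread may be technical. Both lines can also express the native YES1 gene.

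YAP and its relative TAZ drive growth genes together with the DNA-binding TEAD proteins. In the Hippo pathway, NF2, FRMD6 and the WWC proteins act near the membrane and favour activation of the LATS kinases, which phosphorylate YAP and keep it out of the nucleus. Angiomotins and PTPN14 bind the WW domains of YAP directly through short proline-tyrosine motifs, and angiomotins also bind actin and tight junction proteins. AMOTL2 and LATS2 are themselves known as genes that YAP and TEAD switch on, so the pathway contains negative feedback.

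TEAD proteins recognise DNA with the letters GGAATG, or CATTCC on the other strand, and the stretches before the start sites of the 10 genes were read for them. RefSeq start-site windows (GRCh38.p14) matched all 10 genes, in 13 windows, and the 250 bases before each start were searched on both strands. The letters were present for 3 genes, AMOTL2, WWC2 and PTPN14, in 3 of 13 windows, and 11.9% of all 35116 windows of that length hold them. The longer form GGAATGT was found only in a window of AMOTL2, and 2.96% of all windows hold it. The letters TGANTCA, read by AP-1 factors, were in 1 window of LATS1 and in 6.57% of all windows, and no window of the 10 genes held a CArG box, the element of serum response factor, which 1.16% of all windows hold. AMOTL2 and AMOTL1 are shown first because these paralogs moved in opposite directions, and the 2 others because they carry the same letters. Capitals mark GGAATG or GGAATGT on either strand, each line reads 5′ to 3′ along its gene, and the AMOTL1 window holds none of the letters searched. That window lies inside the annotated span of AMOTL1 (94706431 to 94876753), so the stretch before the first annotated base was not searched. The AMOTL2 window shown also lies inside its gene (134355874 to 134375479). The same holds for the PTPN14 window (gene at 214348696 to 214552449), where the stretch before the first annotated base was not searched either. The WWC2 window lies before its gene. A match is only a run of letters, and no binding was measured.
AMOTL2, minus strand, chr3:134374448-134374697: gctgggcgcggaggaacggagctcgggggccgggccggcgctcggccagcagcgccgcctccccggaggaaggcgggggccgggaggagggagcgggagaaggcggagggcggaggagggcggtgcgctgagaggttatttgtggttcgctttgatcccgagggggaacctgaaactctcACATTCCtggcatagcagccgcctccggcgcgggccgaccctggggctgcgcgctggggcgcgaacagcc
AMOTL1, plus strand, chr11:94768106-94768355: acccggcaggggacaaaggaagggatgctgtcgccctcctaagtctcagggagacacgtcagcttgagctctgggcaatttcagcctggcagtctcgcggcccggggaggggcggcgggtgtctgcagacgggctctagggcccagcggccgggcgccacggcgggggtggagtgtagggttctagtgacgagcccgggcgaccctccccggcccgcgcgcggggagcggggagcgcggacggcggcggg
WWC2, plus strand, chr4:183099015-183099074: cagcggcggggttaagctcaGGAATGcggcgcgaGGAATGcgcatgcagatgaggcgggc
PTPN14, minus strand, chr1:214551770-214551829: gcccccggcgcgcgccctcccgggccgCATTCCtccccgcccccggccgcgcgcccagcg
In AMOTL2 the match began 70 bases before the start site of this window, in WWC2 2 matches began 222 and 208 bases before it, and in PTPN14 the match began 200 bases before it. AMOTL2, LATS1 and NF2 each have a second window in the table, and these hold no GGAATG.

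Most of these inhibitor genes were higher in Yes T348I. Of the 10, 7 rose (AMOTL2, NF2, FRMD6, WWC1, WWC2, LATS2 and PTPN14), 2 fell (AMOTL1 and AMOT) and LATS1 did not pass, by edgeR's quasi-likelihood test with Benjamini-Hochberg adjustment over all genes tested and a threshold of 0.05. Over all genes tested, 28% rose and 27.3% fell, 55.3% in all. With DESeq2 22.3% rose and 17.3% fell, and with upper quartile factors 24.2% rose and 31.4% fell. A rise of at least 2-fold was seen in 2 of the 10, AMOTL2 and NF2, and in 0.876% of all genes tested. None of the 10 fell at least 2-fold, as 3.21% of all genes tested did. The values of the lines did not overlap for 9 of the 10 genes, 7 higher and 2 lower in Yes T348I, while this held upwards for 29.9% and downwards for 29.7% of all genes tested, 59.5% together. The median log2 fold change was 0.62 over the 10 genes and -0.01 over all genes tested. In bulk RNA, a change of level in each cell and a change in the make-up of the culture cannot be told apart.

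**Figure D1:**
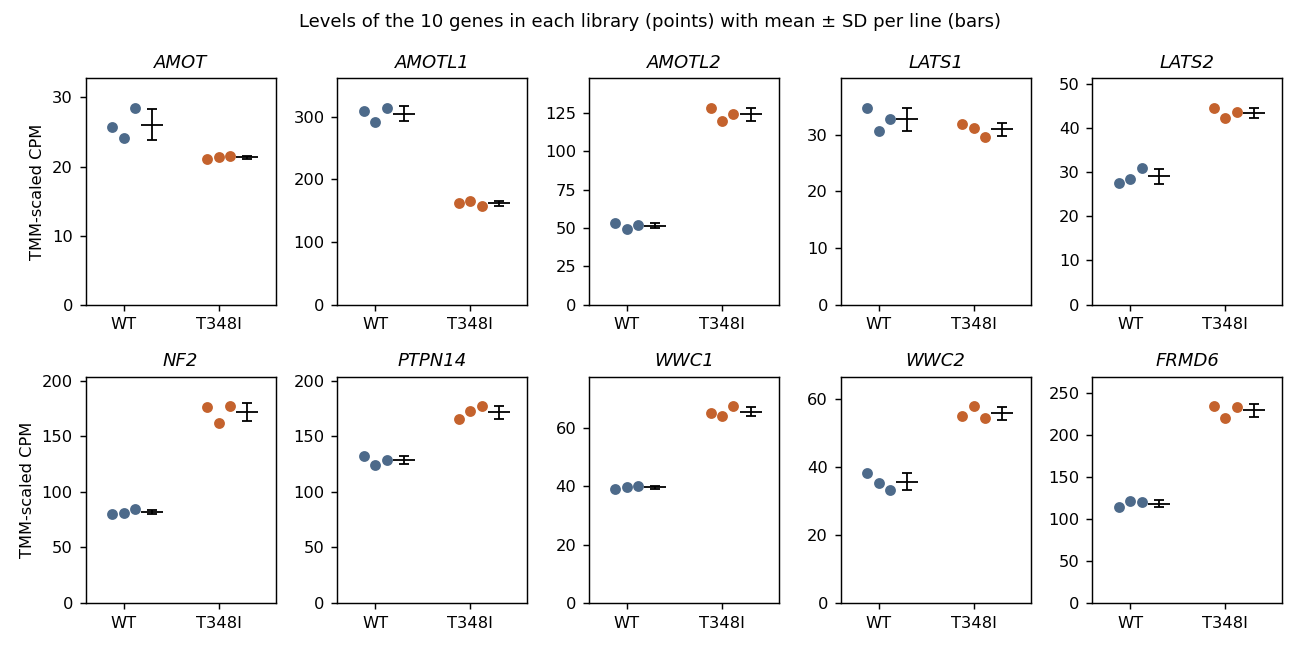
Level of each of the 10 genes in each library, in CPM (counts scaled to a common library size by TMM), with each y axis starting at 0; points are libraries of Yes WT or Yes T348I and the bars give the mean and SD of 3 libraries. The 3 values of each line are apart for every gene except LATS1, and AMOTL1 and AMOT are the 2 genes whose Yes T348I points lie lower.

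Gene counts totalled 14360137 to 19608763 per library, and the chi-square per degree of freedom between libraries of a line was 1.48 to 5.21, so none were copies of each other. YES1, whose counts sum native and introduced transcripts as far as these share sequence, was at 364 ± 6.17 CPM in Yes WT and at 409 ± 26.2 CPM in Yes T348I (mean ± SD of 3 libraries). Gene counts do not show the mutation. Of 7 hepatocyte markers only 3 had enough reads to be tested, albumin never exceeded 10 counts, and the summed hepatocyte level was 4.91 to 5.93 CPM in Yes WT and, in Yes T348I, 2.61 to 4.36 CPM. Mesenchymal markers had a sum of 7116 to 7160 CPM in Yes WT and, in Yes T348I, 7383 to 7727 CPM, and epithelial markers of 425 to 441 and 412 to 453 CPM. These sums follow VIM (6201 and 6726 CPM on average) and KRT8 with KRT18. Of the other mesenchymal markers, CDH2 (153 and 228 CPM, log2 fold change 0.57) and ZEB1 (58.1 and 72.6 CPM, log2 fold change 0.32) rose with VIM. FN1 fell, at 719 and 549 CPM (log2 fold change -0.39, edgeR adjusted p = 1.26e-13). Among the epithelial markers, CDH1 fell, at 3.35 and 1.47 CPM (log2 fold change -1.16, edgeR adjusted p = 8.47e-06), while KRT8, KRT18 and KRT19 did not pass. Among the leukocyte markers, CD3E was at 0 in every library, and the list had a sum of 2.42 to 2.94 CPM in Yes WT and, in Yes T348I, 0.353 to 1.23 CPM. The 4 endothelial markers had a sum of 1.14 to 1.53 and 0.480 to 0.564 CPM, and the 5 stellate cell and fibroblast markers one of 115 to 126 and 119 to 139 CPM. The part of these markers in the results was not tested.

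The membrane scaffolds rose together. NF2 encodes merlin, a FERM domain protein at the cell cortex and a tumour suppressor (ENSG00000186575.17, GRCh38 chromosome 22, 29603556 to 29698598). Its level was 80.0, 81.0 and 84.1 CPM in the Yes WT libraries and 176, 162 and 177 CPM in the Yes T348I libraries. Every Yes T348I library was far above every Yes WT library. Its log2 fold change, Yes T348I over Yes WT, was 1.07 (SE 0.04, edgeR adjusted p = 7.77e-25), and 102 of the 14723 genes tested had a larger one. FRMD6, also called willin, is a FERM protein related to the fly Hippo regulator Expanded (ENSG00000139926.15, chromosome 14, 51489100 to 51730727). It was at 114, 120.7 and 119.8 CPM in Yes WT and at 234, 220.2 and 233 CPM in Yes T348I, again with no overlap. Its log2 fold change was 0.96 (SE 0.04, edgeR adjusted p = 1.55e-24).

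The kidney and brain protein KIBRA is encoded by WWC1, and WWC2 encodes its close relative. Both carry WW domains that bind LATS kinases. WWC1 (ENSG00000113645.14, chromosome 5, 168291651 to 168472303) was at 39.2, 39.9 and 40.2 CPM in Yes WT and at 65.3, 64.3 and 67.5 CPM in Yes T348I. WWC2 (ENSG00000151718.15, chromosome 4, 183099293 to 183320777) was at 38.2, 35.3 and 33.2 CPM in Yes WT and at 55.1, 57.8 and 54.3 CPM in Yes T348I. Neither gene had overlapping values between the lines. The log2 fold changes were 0.72 for WWC1 (SE 0.05, edgeR adjusted p = 2.10e-16) and 0.64 for WWC2 (SE 0.05, edgeR adjusted p = 1.74e-13). CLDN22 overlaps WWC2 on the opposite strand, which the strand-specific counts leave out. The third paralog, WWC3, rose by less: its mean was 42.1 ± 2.03 CPM in Yes WT and, in Yes T348I, 47.3 ± 2.01 CPM, and the log2 value was 0.16 (SE 0.05, edgeR adjusted p = 0.0093).

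The LATS kinases parted. LATS2 (ENSG00000150457.8, chromosome 13, 20973032 to 21061547) was at 27.6, 28.5 and 30.9 CPM in Yes WT and at 44.5, 42.2 and 43.5 CPM in Yes T348I. Its lowest Yes T348I value was well above its highest Yes WT value. This came to a log2 fold change of 0.59 with its SE of 0.06 (edgeR adjusted p = 1.39e-11). LATS1, the other kinase that phosphorylates YAP (ENSG00000131023.12, chromosome 6, 149658153 to 149718256), was at 34.8, 30.7 and 32.8 CPM in Yes WT and at 32.0, 31.3 and 29.6 CPM in Yes T348I. Its values overlapped between the lines. A log2 fold change of -0.08 did not pass (SE 0.06, edgeR adjusted p = 0.27), and its 95% interval ran from -0.20 to 0.04, which does not show that the level was equal.

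Among the proteins that bind YAP directly, PTPN14 rose and the angiomotins moved in both directions. PTPN14 is a tyrosine phosphatase with a FERM domain (ENSG00000152104.11, chromosome 1, 214348696 to 214552449). It was at 132, 124.5 and 129 CPM in Yes WT and at 165, 173 and 177 CPM in Yes T348I, with no overlap and with the smallest rise of the 7. On the log2 scale the rise was 0.42 (SE 0.04, edgeR adjusted p = 9.95e-13). Its paralog PTPN21 had means of 21.9 ± 1.89 and 26.1 ± 1.85 CPM (SD of 3 libraries), with overlapping values. It passed at 0.26 on the log2 scale (SE 0.07, edgeR adjusted p = 0.0019).

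AMOTL2 had the largest rise of the 10 genes. This angiomotin links junctional cadherin to actin and binds YAP (ENSG00000114019.14, chromosome 3, 134355874 to 134375479). It was at 52.9, 49.6 and 52.0 CPM in Yes WT and at 128, 119.8 and 125 CPM in Yes T348I, with no overlap. Its log2 fold change was 1.27 (SE 0.04, edgeR adjusted p = 3.18e-26), and 56 of the 14723 genes tested had a larger one. The pseudogene RPL39P5 lies on the same strand within AMOTL2, over 187 exon bases. AMOTL1, a relative found at tight junctions (ENSG00000166025.17, chromosome 11, 94706431 to 94876753), went the other way. It was at 309, 292 and 314 CPM in Yes WT and at 162, 165 and 158 CPM in Yes T348I. Every Yes T348I value was below every Yes WT value. The log2 fold change was -0.91 (SE 0.03, edgeR adjusted p = 1.12e-24), and 612 of the genes tested had a lower one. AMOT, the founding angiomotin (ENSG00000126016.15, chromosome X, 112774503 to 112840815), was at 25.7, 24.1 and 28.5 CPM in Yes WT and at 21.1, 21.3 and 21.5 CPM in Yes T348I. The lines did not overlap, but the gap between them was narrower than the range of the Yes WT libraries, and the log2 fold change was -0.29 (SE 0.07, edgeR adjusted p = 4.29e-04). AMOT is made in a long and a short form, of which only the long one binds YAP, and the counts are summed over its 6 annotated transcripts.

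**Figure D2:**
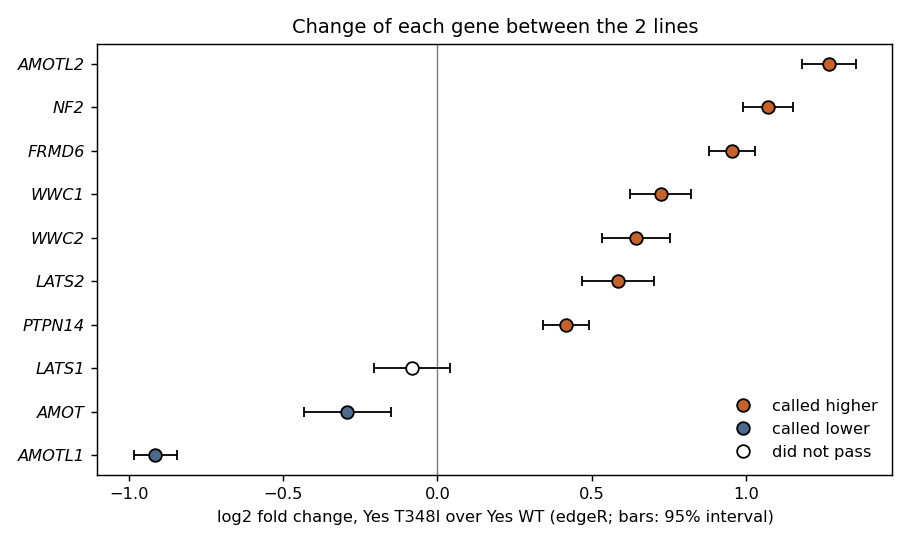
Log2 fold change of each gene, Yes T348I over Yes WT, from edgeR, with its 95% interval as a bar; filled points passed the adjusted p of 0.05. AMOTL2 at 1.27 and AMOTL1 at -0.91 stand at the ends of the order, and the interval of LATS1 crosses 0.

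Neighbours in the order of changes were set against each other by their count ratio in each library. The order came from these same libraries, so the sign of each step was fixed beforehand, and a lack of overlap is only a description. From AMOTL2 down to FRMD6 the ratios of neighbours did not overlap between the lines. The ratios of WWC1 to WWC2 and of WWC2 to LATS2 did overlap, so that WWC2 could not be told from either neighbour. WWC1 counts were 1.42, 1.40 and 1.30 times those of LATS2 in Yes WT and 1.47, 1.52 and 1.55 times in Yes T348I, which did not overlap, a difference of 0.14 on the log2 scale. PTPN14, LATS1, AMOT and AMOTL1 each had ratios to the neighbour above that did not overlap between the lines.

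Paralogs were then compared within each library, as the log2 ratio of their counts (0.5 counts added to each), which needs no scaling between libraries. With 3 libraries against 3, the two-sided exact permutation test cannot give a p below 0.10, and after adjustment over the 5 pairs the smallest value was 0.125. In 4 pairs the ratios did not overlap between the lines, with an exact permutation p = 0.10 each. How often ratios of other gene pairs do so was not computed, and 59.5% of single genes tested did not overlap between the lines. AMOTL2 counts were 0.171, 0.170 and 0.166 of those of AMOTL1 in Yes WT and 0.792, 0.725 and 0.788 of them in Yes T348I. The mean log2 ratio went from -2.56 ± 0.02 to -0.38 ± 0.07 (SD, n = 3 each), a difference of 2.18, or 4.54-fold. AMOT lost ground to AMOTL2, with a difference of -1.56, and gained on AMOTL1, with a difference of 0.63. LATS2 counts were 0.793, 0.928 and 0.941 of those of LATS1 in Yes WT and 1.39, 1.35 and 1.47 of them in Yes T348I, a difference of 0.66 on the log2 scale. WWC2 against WWC1 was the pair whose lines overlapped, at 0.974, 0.884 and 0.827 in Yes WT and 0.843, 0.899 and 0.804 in Yes T348I. Its difference was -0.07 (exact permutation p = 0.50), and the 9 differences between a Yes T348I and a Yes WT library ran from -0.28 to 0.12.

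Levels of different genes were compared per kb of annotated exon (RPKM, the TMM-scaled CPM divided by the summed length of all exons of the gene in GENCODE 29). In Yes WT, AMOTL1 was the most abundant of the 10 at 30.4 ± 1.13 RPKM (SD, n = 3). FRMD6 at 12.5, NF2 at 11.4, AMOTL2 at 8.61, PTPN14 at 6.85 and LATS2 at 5.20 RPKM followed, each apart from the next. WWC1 at 3.95, LATS1 at 3.79, WWC2 at 3.57 and AMOT at 3.07 RPKM came last, with ranges that overlapped from one to the next. In Yes T348I the order opened with FRMD6 at 24.3 ± 0.804 and NF2 at 24.0 ± 1.16 RPKM (SD, n = 3 each), which overlapped. AMOTL2 at 20.8 RPKM then stood above AMOTL1 at 16.1 RPKM. PTPN14 at 9.15, LATS2 at 7.78, WWC1 at 6.52, WWC2 at 5.59, LATS1 at 3.58 and AMOT at 2.51 RPKM completed the order, each apart from the next. Parts of this order rest on the exon length used. With the longest annotated transcript of each gene as its length, an alternative added after seeing the data, FRMD6 stood at 44.7 and NF2 at 28.5 RPKM in Yes T348I, without overlap, and NF2 overlapped with AMOTL2 at 27.5 RPKM. WWC1 then lay above LATS2, at 9.22 against 7.88 RPKM in Yes T348I and at 5.58 against 5.26 RPKM in Yes WT, where the ranges overlapped. AMOTL1 remained the most abundant in Yes WT, at 34.0 RPKM, and AMOTL2 remained above AMOTL1 in Yes T348I.

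AMOTL1 and AMOTL2 changed places in the angiomotin level per kb of exon. AMOTL1 made up 72.2% ± 0.11 of the angiomotin level per kb in Yes WT and 40.9% ± 1.11 in Yes T348I (SD, n = 3 each). AMOTL2 went from 20.5% ± 0.35 to 52.7% ± 1.18, and AMOT from 7.29% ± 0.39 to 6.37% ± 0.15 (SD, n = 3 each). The summed level of the 3 angiomotins was 42.6, 40.2 and 43.3 RPKM in Yes WT and 40.1, 39.0 and 39.1 RPKM in Yes T348I. The means were in a ratio of 0.936, and the lines did not overlap. The size of this fall, and whether the lines overlap, rest on the length used. With the longest annotated transcript as length, mean AMOTL1 was 34.0, AMOTL2 11.4 and AMOT 3.56 RPKM in Yes WT. In Yes T348I these means were 18.0, 27.5 and 2.91 RPKM, and the summed levels of the lines then overlapped. In CPM, mean AMOTL1 went from 305 to 162, mean AMOTL2 from 51.5 to 124 and mean AMOT from 26.1 to 21.3. LATS2 made up 57.8% ± 2.33 of the summed LATS level in Yes WT and 68.5% ± 0.92 in Yes T348I (SD, n = 3 each), and the sum rose from 8.99 ± 0.34 to 11.4 ± 0.27 RPKM. WWC2 kept a share of the WWC1 and WWC2 sum that overlapped between the lines, 47.4% ± 2.05 and 46.2% ± 1.39 (SD, n = 3 each), while the sum went from 7.52 ± 0.20 to 12.1 ± 0.09 RPKM. With all exons as the length, each of these sums had an exact permutation p = 0.10 (two-sided, n = 3 each), the smallest the design allows. Shares depend on the exon length used, since transcript forms cannot be told apart in gene counts.

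**Figure D3:**
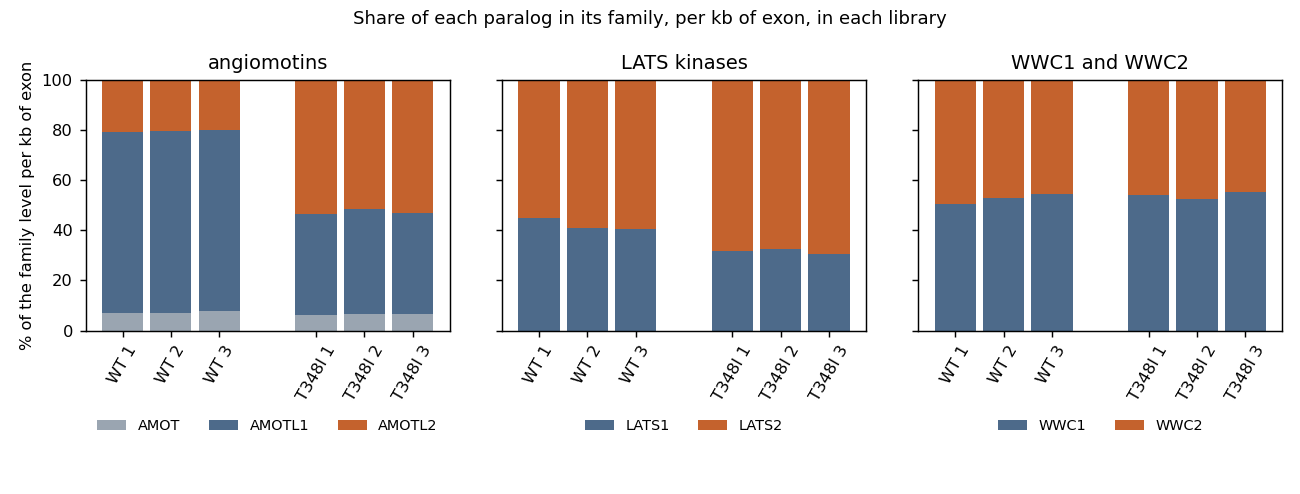
Share of each paralog in the level of its family per kb of exon, in percent, with 1 bar per library from 0 to 100 and the libraries of Yes WT on the left of each panel. AMOTL2 takes up 52.7% of the angiomotin bars in Yes T348I against 20.5% in Yes WT, LATS2 takes a larger share in Yes T348I, and the WWC1 and WWC2 shares overlap.

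Other genes of the pathway were read from 9 lists beside the 10 genes, chosen like them with earlier results of these data known. In these lists the called genes went both ways. Together the lists held 124 tested genes other than the 10, of which 60 rose (48.4%) and 40 fell (32.3%). Their log2 fold changes had a median of 0.10. Over all genes tested 28% rose and 27.3% fell, and these shares are the background for each list below. No list was tested as a set. Of 11 genes of the Hippo kinase cassette 5 rose and 3 fell (median 0.08). STK3, which encodes the upstream kinase MST2, rose from a mean of 38.4 ± 1.28 CPM in Yes WT to 50.2 ± 1.29 CPM in Yes T348I, and MOB1A, the LATS coactivator, from 135 ± 3.10 CPM to 171 ± 7.74 CPM. RASSF1, a scaffold of MST kinases, also rose (0.71 on the log2 scale, SE 0.07), while SAV1, the MST partner salvador, fell by 0.16 on the log2 scale (SE 0.06, edgeR adjusted p = 0.016). RASSF4 fell by 0.36 on the log2 scale (SE 0.06). RASSF5 had few reads, with 2.69 ± 1.09 CPM in Yes WT against 1.71 ± 0.08 CPM, and the highest adjusted p of the 3 lower genes (-0.63, SE 0.23, edgeR adjusted p = 0.020). With DESeq2 1 gene of the cassette was lower.

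The MAP4K and TAO kinases, which act beside MST upstream of LATS, had 3 of 9 tested genes higher and 5 lower (median -0.10). The higher genes were MAP4K4 (0.17, SE 0.03), TAOK3 (0.30, SE 0.06) and MAP4K5 (0.16, SE 0.04), and the lower ones with the lowest adjusted p were TNIK (-0.52, SE 0.08), TAOK1 (-0.21, SE 0.04) and MAP4K2 (-0.30, SE 0.07), as log2 fold changes. The 5 lower genes became 3 without Yes WT replicate 1, with DESeq2, or with no low-count filter. Of 16 genes of STRIPAK, a phosphatase complex that inactivates MST kinases, 9 rose and 2 fell (median 0.13). The catalytic subunits PPP2CA and PPP2CB rose with log2 fold changes of 0.40 and 0.27 (SE 0.04 each), and the kinase gene STK26 with 0.36 (SE 0.05). STRIP2 (-0.54, SE 0.06) and the striatin gene STRN (-0.41, SE 0.12) fell. The 9 higher genes became 6 with upper quartile factors or library size only and 7 with DESeq2, where 1 gene was lower.

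Of 6 LIM domain proteins of the Ajuba and zyxin families, several of which bind and restrain LATS, 4 rose and 2 fell (median 0.45). AJUBA went from a mean of 100.3 ± 0.595 CPM to one of 206 ± 4.98 CPM, with 1.04 on the log2 scale (SE 0.04, edgeR adjusted p = 6.92e-26). The zyxin gene ZYX (0.66, SE 0.04) and TRIP6 (0.38, SE 0.04) rose as well. The lower genes were LIMD1 at -0.22 (SE 0.04) and LPP at -0.16 (SE 0.05), and 1 of these 2 calls was lost without Yes WT replicate 1 and 1 with DESeq2. Genes known to oppose LATS and genes known to assist it were thus both among those that rose.

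FERM proteins related to NF2 and FRMD6, with PTPN relatives and WWC3, had 6 of 18 tested genes higher and 9 lower (median -0.10). Higher were EPB41L2 (0.87, SE 0.04), FRMD5 (0.59, SE 0.06) and the ezrin gene EZR (0.53, SE 0.03), and lower were PTPN3 (-0.51, SE 0.06), FRMD4B (-0.44, SE 0.05) and FRMD4A (-0.26, SE 0.03), again on the log2 scale. FRMD1, a relative of FRMD6, had no count in any library, where the limit for a count of 0 is 3 counts per library. Of 24 apical polarity and junction genes 10 rose and 8 fell (median 0.06). The tight junction gene CLDN1 (0.80, SE 0.04), the N-cadherin gene CDH2 (0.57, SE 0.03) and DLG1 (0.49, SE 0.04) rose, while the polarity genes LLGL2 (-1.12, SE 0.07) and PARD6B (-0.64, SE 0.06) and the beta-catenin gene CTNNB1 (-0.26, SE 0.03) fell.

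Enzymes that control the stability of LATS, angiomotins or NF2 had 6 of 15 genes higher and 5 lower (median 0.05). The ubiquitin ligases NEDD4 and NEDD4L, known to target LATS and angiomotins, both rose. NEDD4 had means of 183 ± 3.25 CPM in Yes WT and, in Yes T348I, 285 ± 5.91 CPM, and NEDD4L had 120.02 ± 3.12 and 191 ± 7.40 CPM. LRR1 rose too (0.49 on the log2 scale, SE 0.06). The tankyrase genes TNKS and TNKS2, whose products mark angiomotins for degradation, had log2 fold changes of -0.56 (SE 0.05) and -0.18 (SE 0.04), and USP9X, a deubiquitinase of angiomotins, had -0.33 (SE 0.03).

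Downstream of the 10 genes, YAP1 had means of 166 ± 5.83 CPM in Yes WT and, in Yes T348I, 159.6 ± 2.67 CPM and did not pass (log2 fold change -0.06, edgeR adjusted p = 0.16). Of 7 tested genes among YAP, TAZ, TEAD and VGLL, 3 rose and 3 fell (median -0.06). TEAD4 (0.63, SE 0.06), TEAD1 (0.23, SE 0.03) and WWTR1, which encodes TAZ (0.14, SE 0.03), were higher, while VGLL4 (-0.31, SE 0.05), TEAD2 (-0.29, SE 0.05) and TEAD3 (-0.29, SE 0.08) were lower. Among 19 tested YAP/TAZ-TEAD targets outside the 10 genes, 15 rose and 3 fell (median 0.69), close to the median of 0.62 over the 10. CCN2, CCN1 and ANKRD1, the targets with the lowest adjusted p, had log2 fold changes of 1.73, 1.66 and 1.90 (SE 0.04 each), and the 3 lower genes were NT5E (-0.23), ARHGEF17 (-0.29) and FJX1 (-0.14). AJUBA stands in this list and in that of the LIM proteins.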

How the data were processed

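Polyadenylated RNA of 6 libraries was sequenced with a strand-keeping kit, per the labels' protocols. The deposited values are raw read counts per gene; tools listed by the submitters' processing notes are STAR 2.5.1b, Trimmomatic 0.35 and CASAVA 1.8.2, with GRCh38 as the build. The annotation release was not given in the sources used here. Counts of the fourth column (reverse strand) were used, since the forward column held 6.13% to 6.59% of its total. Summary lines were left out: reads on no feature were 6.37% to 7.87% and ambiguous reads 3.11% to 3.15% of uniquely mapped reads. Of 58219 identifiers, 57437 matched a symbol and 57881 matched GENCODE 29 (GRCh38), which gave positions and exon lengths.

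The test was that of edgeR 4.0.16 under R 4.3.3 (filterByExpr with a minimum count of 10, TMM, quasi-likelihood F-test, no covariate, Benjamini-Hochberg over all genes tested), after a check on simulated data. DESeq2 1.42.0 was an alternative. The biological coefficient of variation was 2.83%, so small changes passed. The 10 genes and all lists were chosen with earlier results of these data known. The genes named are the 10, YES1, YAP1, WWTR1, WWC3, PTPN21, FRMD1, up to 3 per direction and list with the lowest adjusted p, and for the largest rise and fall the 3 most alike genes. Promoter windows came from RefSeq (GRCh38.p14).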

Additional observations from a re-analysis of the deposited data

Results flagged for a closer look

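Reads on the strand opposite to the gene were not used in any comparison. They exceeded 3 counts in every library for 6 of the 10 genes. Pooled over the 6 libraries, they came to 2.75% of the counted-strand reads for WWC1, 2.33% for AMOTL2, 1.8% for AMOTL1, 1.70% for NF2, 1.05% for PTPN14 and 0.996% for FRMD6. For each of the 10 genes the percentages of the lines overlapped.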

How the results depend on the processing

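Under 13 alternatives (RLE, upper quartile or no scaling factors, DESeq2, no low-count filter, unstranded counts, the replicate block and leaving out each library), 7 of the 10 genes stayed called higher and 2 lower each time, and all 130 values for single genes kept their direction and their side of the threshold. The log2 fold change of AMOT, the weakest call, ran from -0.34 to -0.22 (adjusted p 7.84e-05 to 0.015), and that of LATS1 from -0.12 to -0.03 (adjusted p 0.088 to 0.71). Scaling moved the median of all genes by at most -0.04 on the log2 scale (upper quartile factors). The 5 paralog differences kept their sign with unstranded counts, with 5 counts added and without each library.

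Shares per kb moved with the length used. With the longest transcript in place of all exons, AMOTL2 made up 23.3% of the angiomotins in Yes WT and 56.7% in Yes T348I, LATS2 54.7% and 65.7% of the LATS kinases, and WWC2 41.9% and 40.6% of WWC1 and WWC2. With unstranded counts, AMOTL2 made up 21.5% and 54.1%. The sign of each difference between the lines was kept.

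Same-numbered libraries did not deviate together (correlations of -0.03, 0.0014 and -0.02 over genes), so no pairing by number was seen. Such correlations cannot show that same-numbered libraries were handled apart. With the replicate block 7 genes were higher and 2 lower, and over all genes 4054 rose and 3936 fell, against 4123 and 4024 without it.

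Gene counts do not separate transcript forms, and genes of low counts such as AMOT (305 to 426 per library) have wider intervals.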

Other observations

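By the root mean square distance of centred log2 CPM over the 6 libraries, the 3 genes most like AMOTL2 were GADD45B (distance 0.03), AXL (0.04) and ATP8B1 (0.06). AXL encodes a receptor tyrosine kinase and went from 262 ± 3.72 to 605 ± 5.75 CPM, and ATP8B1, a lipid flippase gene, from 76.8 ± 3.50 to 178 ± 6.36 CPM (SD, n = 3 each). The 3 most like AMOTL1 were ANKRD44, AHR and KYNU (0.03 each). AHR encodes the aryl hydrocarbon receptor and went from 134 ± 1.96 to 70.7 ± 2.78 CPM, and KYNU, the kynureninase gene, from 242 ± 3.39 to 126 ± 0.929 CPM (SD, n = 3 each). With only 2 lines, such likeness rests almost wholly on a similar size of the difference between them.

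The members of each paralog pair shared no run of 31 bases in their annotated transcripts, and LATS2 shared none with any other gene, and WWC2 shared 25.3% of its 31-base runs with others, CLDN22 among them, whose exons overlap 2581 bases of WWC2 on the opposite strand. AMOTL2 overlaps 187 bases of the pseudogene RPL39P5 on its own strand.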
